A study of Mus musculus with 6 samples.

Results

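Capillary endothelial cells of the lower abdominal muscle (LAM) were compared between wild-type (WT) and Aromhum mice. A cell barcode was counted as capillary when it held at least 1000 unique molecular identifiers (UMIs, each counting 1 captured transcript), at most 10% of its UMIs in mitochondrial genes, at least 3 UMIs of Gpihbp1 and at least 1 of the endothelial genes Cdh5 or Pecam1. It also had fewer than 2 of the arterial genes Gja4, Gja5, Sema3g, Hey1 and Gkn3, fewer than 2 of the venular genes Selp, Ackr1 and Sele, and no UMI of the fibroblast gene Pdgfra or the smooth muscle gene Myh11. These conditions kept 7615 of 63647 barcodes, or 14.2% of the 53443 barcodes within the UMI and mitochondrial limits. Because the cells were chosen on these 13 genes, the levels of those genes are given below as a description only.

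The series holds 3 WT and 3 Aromhum male mice of strain FVB/N, 9 to 10 weeks old, each with 1 library. The Aromhum mice carry the human aromatase gene CYP19A1 on a genomic fragment with its own regulatory region. The study describes its promoters as tissue-specific, and which cell types express the transgene was not tested here. The labels record scrotal hernia in the Aromhum mice and control in the WT mice. LAM was digested with collagenase and size-filtered to mononuclear cells, which were captured on a 10x Genomics Chromium instrument on 3 dates, with 1 WT and 1 Aromhum littermate on each. A WT and an Aromhum library with the same number are not stated to share a date.

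Human CYP19A1 was listed at 0 in all 3 WT libraries and held 770, 797 and 787 UMIs in Aromhum 1, 2 and 3. Within the capillary cells it gave 7, 7 and 17 UMIs, or 2.09, 2.12 and 2.63 plain CPM (counts per 1000000 UMIs of the summed cells), so all 3 Aromhum libraries matched their labels. The libraries summed to 64958237 to 72876541 UMIs in WT and 92652109 to 111826460 UMIs in Aromhum mice.

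Capillary endothelium is the exchange wall of skeletal muscle. GPIHBP1 on its surface binds lipoprotein lipase and carries it to the lumen, where the enzyme releases fatty acids from circulating triglycerides, and CD36 and the fatty acid binding proteins FABP4 and FABP5 take these fatty acids into and across the cell. Blood enters capillaries from arterioles and leaves through venules, whose endothelium is known for leukocyte adhesion molecules such as P-selectin and VCAM1.

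The rule left 1703, 1815 and 1839 cells in WT 1, 2 and 3 and 665, 635 and 958 cells in Aromhum 1, 2 and 3. The median Gpihbp1 count per cell was 8, 10 and 10 UMIs in the WT mice and 7, 5 and 9 UMIs in the Aromhum mice, and the cells exactly at the limit of 3 UMIs made up 5.73% to 10.3% of the WT and 9.60% to 23.3% of the Aromhum cells. Just outside the limit, 810 barcodes that met every other condition had 2 Gpihbp1 UMIs, with 206 CPM of Timp4 and 645 CPM of Rbp7. Just inside it, 711 cells had 3 UMIs, with 273 CPM of Timp4 and 760 CPM of Rbp7. The levels were thus slightly higher just inside the limit than just outside it, with no gap between them.

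Some cells carried signs of a second identity. At least 2 of 4 lymphatic genes were present in 290 of the capillary cells. As likely doublets 438 were marked, where the highest-scoring 8% of each library were marked. Apart from identity, 106 had a barcode sequence that also occurred in another library. The lymphatic chemokine Ccl21a reached 1811 ± 761 CPM in the capillary sums (SD, n = 6 mice) against 2.51 ± 1.04 CPM in arterial cells, which were freed of cells with 2 lymphatic genes. The median UMIs per capillary cell were 3497, 5053 and 5055 in WT and 3538, 3930 and 4539 in Aromhum mice, and these overlapped (exact permutation p = 0.4, 2-sided).

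The markers of the label were read first against cells outside the endothelium. The rule asks for Cdh5 or Pecam1 and bars Pdgfra, so high ratios of endothelial genes were built in. They bear on endothelial and not on capillary identity. Beyond Gpihbp1, the 4 other markers set for capillary cells were Rbp7, a retinol-binding protein, Timp4, an inhibitor of matrix metalloproteinases, Car4, a membrane-anchored carbonic anhydrase, and Cd300lg, a receptor-like protein of microvascular endothelium. Their levels in capillary cells, as the mean of 6 mice, were 910 CPM for Rbp7, 423 CPM for Timp4, 81.8 CPM for Car4 and 445 CPM for Cd300lg. In barcodes with Pdgfra and no Cdh5 or Pecam1 (Pdgfra+ cells, the fibroblast-like cells of this tissue) the same genes stood at 2.42, 0.909, 0.214 and 4.60 CPM. The genes with the highest ratio to all barcodes without Cdh5 or Pecam1 were the adhesion receptor Adgrl4 (353 CPM, 197 times), C1qtnf9 (443 CPM, 184 times), Gm32688 (114 CPM, 167 times), the tight junction claudin Cldn5 (2753 CPM, 167 times), Timp4 (423 CPM, 163 times) and the glycerol channel Aqp7 (108 CPM, 158 times). The fatty acid binding protein Fabp4 alone took 17921 CPM.

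Capillary cells made up 20.0%, 24.6% and 27.2% of the barcodes within limits in WT 1, 2 and 3 and 6.22%, 5.21% and 12.1% in Aromhum 1, 2 and 3. Every Aromhum mouse lay below every WT mouse, and Aromhum 3 lay nearest to the WT range. The means were 23.9 ± 3.65% and 7.86 ± 3.75% (SD, n = 3 mice each), a share 3.04 times higher in WT, with an exact permutation p = 0.1 (2-sided), which is the smallest p that 3 against 3 mice can give and stays above 0.05. The 95% Wilson intervals, which cover counting error only, were at most 28.3% and at least 19.1% in the WT libraries and at most 12.9% and at least 4.83% in the Aromhum libraries.

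The share is relative to the other cells captured. Pdgfra+ cells made up 20.4 ± 5.86% of the WT and 34.6 ± 5.60% of the Aromhum barcodes (exact permutation p = 0.1, n = 3 mice each), and their part in the lower capillary share was not tested. Among barcodes with Cdh5 or Pecam1 alone, capillary cells took 47.0 ± 2.38% in WT and 25.4 ± 4.99% in Aromhum mice, again without overlap (exact permutation p = 0.1, n = 3 mice each). Each venular cell was matched by 3.68, 7.12 and 5.01 capillary cells in WT 1, 2 and 3 and by 0.764, 1.16 and 1.65 in Aromhum 1, 2 and 3 (exact permutation p = 0.1). Each arterial cell was matched by 6.92, 5.82 and 4.59 capillary cells in WT and by 3.24, 4.92 and 3.86 in Aromhum mice, and here the genotypes overlapped (exact permutation p = 0.2). The shares of arterial cells (4.35 ± 1.52% and 2.04 ± 1.05%), venular cells (4.77 ± 1.14% and 6.66 ± 1.92%) and lymphatic cells (0.873 ± 0.173% and 0.798 ± 0.244%) overlapped between WT and Aromhum mice (exact permutation p = 0.2, 0.3 and 0.8, n = 3 mice each). Fewer capillary cells in the tissue, fewer released by collagenase and less Gpihbp1 per cell cannot be told apart from a share.

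**Figure D1:**
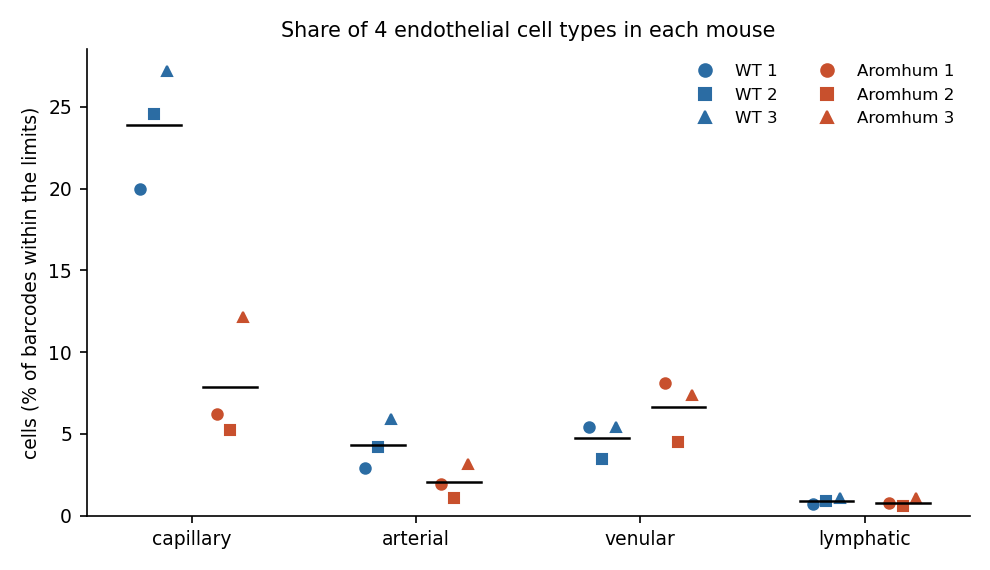
Shares of capillary, arterial, venular and lymphatic endothelial cells, in percent of the barcodes within the UMI and mitochondrial limits (y axis), with 1 point per mouse and a bar at the mean of each genotype. The capillary points of the Aromhum mice (5.21% to 12.1%) all lie below those of the WT mice (20.0% to 27.2%), while the genotypes overlap in the other 3 cell types.

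The capillary share kept its direction, with no overlap, when the Gpihbp1 limit was moved. With at least 2 Gpihbp1 UMIs it was 25.8% in WT and 9.11% in Aromhum mice, and with at least 5 it was 20.2% and 5.98%. With cells thinned to 3000 UMIs and shallower cells left out, which kept 6624 of 8523, 6300 of 7386 and 5618 of 6765 barcodes in WT and 9071 of 10688, 10324 of 12192 and 6889 of 7889 in Aromhum mice, the shares were 20.1% and 5.44%. Without cells that held more than 1 UMI of the fibroblast genes Dcn, Col1a1, Col1a2 and Col3a1 they were 18.3% and 3.86%. That filter left the denominator as it was and took out 21.0% to 25.8% of WT and 44.6% to 54.3% of Aromhum capillary cells. It thus lowers the Aromhum share the more by design. Under the study's limits on cells (200 to 2500 genes and at most 5% mitochondrial UMIs) the shares were 28.9% and 13.4%. Under these limits the genotypes nearly met, at 23.5% in WT 1 and 23.3% in Aromhum 3. Each of these settings gave the exact permutation p = 0.1 (n = 3 mice each).

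Within the endothelium, capillary cells were set against 1541 arterial cells, with at least 2 of the 5 arterial genes, and 3083 venular cells, with at least 2 of the 3 venular genes. The UMIs of each mouse were added up within each cell type and tested with edgeR's quasi-likelihood test with a term for each mouse and Benjamini-Hochberg adjustment over all genes. Of 10944 genes, 3093 (28.3%) differed from arterial cells, and of 11738 genes, 6495 (55.3%) differed from venular cells, so a call against either type is common and is read only for named genes. Capillary cells had to hold Gpihbp1, and arterial and venular cells did not. Among barcodes that met every other condition, Timp4 went from 10.7 CPM at 0 Gpihbp1 UMIs to 520 CPM at 10 or more. Cd300lg went from 28.3 to 467 CPM. Differences in genes that go with those of the rule, capillary, arterial or venular, were thus in part built in and are a description. Of the 4 markers other than Gpihbp1, 3 were higher than in arterial cells. The log2 differences were 1.41 for Timp4, 1.54 for Car4 and 0.92 for Cd300lg (edgeR adjusted p of at most 7.12e-05), while Rbp7 was lower (-0.47, edgeR adjusted p = 0.0144) at 910 CPM against 1252 CPM. All 4 were higher than in venular cells, with log2 differences of 2.94 for Rbp7, 4.07 for Timp4, 4.35 for Car4 and 1.31 for Cd300lg (edgeR adjusted p of at most 1.47e-06).

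**Figure D2:**
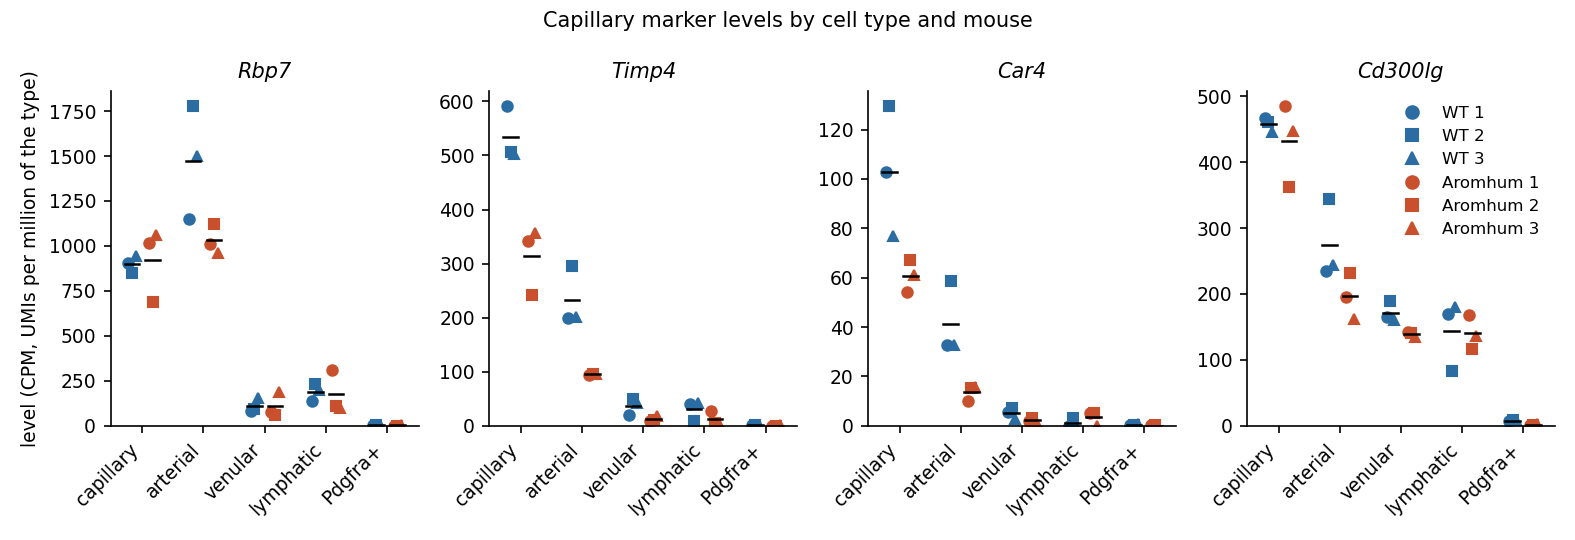
Levels of Rbp7, Timp4, Car4 and Cd300lg (y axes, CPM of the UMIs of each cell type, each axis from 0) in 5 cell types, with 1 point per mouse and a bar at the mean of each genotype. Timp4, Car4 and Cd300lg are highest in capillary cells, Rbp7 is higher in arterial cells (1252 CPM) than in capillary cells (910 CPM), and all 4 are near 0 in Pdgfra+ cells.

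Of 16 other capillary genes, 12 were higher than in arterial cells and 12 higher than in venular cells. The water channel Aqp1 was 2.64 higher on the log2 scale than in arterial cells but did not differ from venular cells by this test (-0.02, edgeR adjusted p = 0.799). The scavenger receptor and fatty acid transporter Cd36 was higher than in both types, by 0.66 and 0.90, as were the VEGF receptor Kdr, by 0.96 and 1.32, the transcription factor Tcf15, by 0.68 and 2.91, and the cell cycle regulator Rgcc, by 0.97 and 2.46. Lipoprotein lipase (Lpl) was higher by 1.14 and 3.00. The butyrophilin-like gene Btnl9 went the other way from arterial cells (-0.60) and stood far above venular cells (5.08). The edgeR adjusted p of these differences, apart from that of Aqp1 from venular cells, was at most 0.00422. Arterial genes that the rule did not use were lower in capillary than in arterial cells, among them the elastic fibre gene Fbln5 (-3.47), the growth factor Vegfc (-3.61) and the kinase Bmx (-4.89), whereas the Notch ligand Dll4 was only slightly lower than in arterial cells (-0.61) and far above venular cells (3.35). Of the venular genes outside the rule, Vcam1 (-5.26), the von Willebrand factor gene Vwf (-4.51), the secreted glycoprotein gene Lrg1 (-4.70) and the fenestral diaphragm gene Plvap (-4.24) were all lower in capillary than in venular cells.

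Between genotypes, 101 of 12008 genes (0.841%) passed the threshold in capillary cells by edgeR's quasi-likelihood test on the sums per mouse, 73 of them (0.608%) higher and 28 (0.233%) lower in Aromhum mice. An unadjusted p under 0.05 was reached by 1970 genes, and the median log2 difference over all genes was -0.01, with 5864 above and 6135 below 0. With DESeq2, an alternative test, 254 of 13881 genes were called higher and 106 lower, and its counts within lists below stand against these. The genotypes did not overlap in 2728 of the 12008 genes (22.7%). The edgeR list was sensitive to single mice. Of the 101 calls, 20 were still made without Aromhum 1, 15 without Aromhum 2, 49 without Aromhum 3, 14 without WT 1, 0 without WT 2 and 3 without WT 3, and without WT 2 no gene passed at all, with 1513 at an unadjusted p under 0.05. All 101 called genes kept their sign in each of these fits in which they could be tested. For the main calls below, the number of the 6 fits with a mouse left out in which the gene still passed is given beside the p.

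No gene of capillary identity passed this test at an adjusted p under 0.05, although some lay close to it. All 4 markers beside Gpihbp1 had log2 differences below 0. Timp4 was 593, 514 and 527 CPM in WT 1, 2 and 3 and 331, 236 and 352 CPM in Aromhum 1, 2 and 3, without overlap (log2 difference -0.82 ± 0.15 SE, edgeR adjusted p = 0.0546). It passed with DESeq2 (adjusted p = 7.27e-05), with at least 2 Gpihbp1 UMIs (edgeR adjusted p = 0.0382) and with no filter on low counts (edgeR adjusted p = 0.0444). It was far from passing without cells with more than 1 fibroblast UMI (-0.55, edgeR adjusted p = 0.205), at the 5% mitochondrial limit (-0.69, edgeR adjusted p = 0.195) and under the study's limits on cells (-0.60, edgeR adjusted p = 0.156). Car4 was 103, 131 and 80.7 CPM in WT and 52.3, 65.7 and 60.2 CPM in Aromhum mice (-0.81 ± 0.18 SE, edgeR adjusted p = 0.088), and it passed with DESeq2 (adjusted p = 0.00445). Rbp7 (-0.02) and Cd300lg (-0.14) overlapped between genotypes. Gpihbp1, which chose the cells, was 2093, 1762 and 1837 CPM in WT and 1657, 1331 and 1809 CPM in Aromhum mice. In arterial cells Timp4 was 1 of the 3 genes that passed the test, with a log2 difference of -1.30 ± 0.17 SE (edgeR adjusted p = 0.0459).

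Because cells had to hold 3 UMIs of Gpihbp1, the Timp4 values were also read within bands of Gpihbp1 in cells thinned to 3000 UMIs. With 0 to 4 Gpihbp1 UMIs, Timp4 was 335 to 418 CPM in WT and 163 to 211 CPM in Aromhum mice. With 5 to 9 it was 613 to 688 and 318 to 471 CPM, and with 10 or more it was 962 to 1218 and 556 to 790 CPM. The genotypes did not overlap within any of the 3 bands. This is a description only, since Gpihbp1 chose the cells and can still differ between genotypes within a band. With 10 or more UMIs, Aromhum mice had only 18 to 119 cells. After thinning, 61.0% to 63.9% of WT and 38.7% to 50.1% of Aromhum capillary cells held a Timp4 UMI (exact permutation p = 0.1, n = 3 mice each; 985, 1451 and 1431 cells of WT and 388, 390 and 695 of Aromhum mice reached 3000 UMIs), against 0.318% to 0.440% and 0.0621% to 0.174% of Pdgfra+ cells thinned likewise. Without thinning the shares were 72.3% to 78.8% and 49.6% to 64.1%.

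All 16 other capillary genes had log2 differences below 0, from -0.67 to -0.01 with a median of -0.26, and none passed. With DESeq2 6 were called lower, against 106 of 13881 genes. By edgeR, 1 was called lower with at least 2 Gpihbp1 UMIs (50 of 12190 genes) and with no filter on low counts (37 of 16066). The genotypes did not overlap in 9 of the 16, against 22.7% of all genes tested. The median lay between -0.30 and -0.13 under all alternatives, and it was -0.13, with 12 of 16 genes below 0, without cells that held more than 1 fibroblast UMI. The nucleoside transporter Slc28a2 had means of 135 ± 16.3 CPM in WT and 84.3 ± 8.56 CPM in Aromhum mice (SD, n = 3 mice each; edgeR adjusted p = 0.0537), the homeobox gene Meox2 had 101 ± 12.2 and 63.5 ± 8.67 CPM (edgeR adjusted p = 0.0704), and Tcf15 had 548 ± 74.7 and 366 ± 52.7 CPM (edgeR adjusted p = 0.102). Of 23 genes shared by all endothelium, 17 lay below 0 and none passed by edgeR, with 7 at an unadjusted p under 0.05, and DESeq2 called 1 lower. In 10 of the 23, 9 of them lower in Aromhum mice, the genotypes did not overlap, so lower values were not limited to capillary genes.

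Among 28 tested genes of lipoprotein lipase and fatty acid uptake, 1 fell and none rose by edgeR, against 0.233% and 0.608% of all genes tested. The median log2 difference was -0.02, and DESeq2 called 5 lower and 1 higher, against 106 and 254 of 13881 genes. The gene that fell was Pparg, the nuclear receptor that turns on fatty acid uptake genes. It stood at 61.6, 66.1 and 63.6 CPM in WT 1, 2 and 3 and at 40.5, 43.4 and 43.7 CPM in Aromhum 1, 2 and 3 (-0.57 ± 0.09 SE, edgeR adjusted p = 0.0414, 0 of 6 fits with a mouse left out). The genotypes stood apart in Pparg with little spread within each, and it passed in 8 of the 14 alternatives that kept the 6 mice. Cd36 was 1723, 1780 and 1659 CPM in WT and 1384, 1441 and 1335 CPM in Aromhum mice, without overlap, yet did not pass (-0.30, edgeR adjusted p = 0.166). Fabp4 was 18213, 19958 and 19766 CPM in WT and 16906, 17279 and 15557 CPM in Aromhum mice (-0.21, edgeR adjusted p = 0.338). Lpl had means of 578 ± 69.5 and 446 ± 120 CPM and overlapped. Of 11 genes of caveolae and transcytosis, none passed by edgeR, with 6 at an unadjusted p under 0.05, and DESeq2 called 2 higher and 1 lower. By edgeR, 2 rose under the study's limits on cells, against 71 of 8938 genes. The number was 1 after thinning (63 of 9518), without cells with more than 1 fibroblast UMI (46 of 10312) and without Aromhum 3 (92 of 12545).

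Of 13 venular genes outside the rule, 2 rose in the capillary cells of Aromhum mice by edgeR, Lrg1 and the protease Ctsh, against 0.608% of all genes tested. By DESeq2 5 rose, against 254 of 13881 genes. All 13 had log2 differences above 0, with a median of 0.81 against -0.01 over all genes. The genotypes did not overlap in 8 of the 13, against 22.7% of all genes tested. The median lay between 0.61 and 1.04 under all alternatives. Lrg1 codes for a secreted glycoprotein of inflamed and remodelling vessels. It stood at 37.6, 19.7 and 24.5 CPM in WT 1, 2 and 3 and at 240, 123 and 73.4 CPM in Aromhum 1, 2 and 3, so that every Aromhum mouse was above every WT mouse, with a wide spread among the Aromhum mice. Its log2 difference was 2.43 ± 0.42 SE (edgeR adjusted p = 0.0451, 1 of 6 fits). Ctsh was 17.8, 13.3 and 9.06 CPM in WT and 44.5, 38.6 and 33.6 CPM in Aromhum mice (1.55 ± 0.24 SE, edgeR adjusted p = 0.0367, 2 of 6 fits). Pdgfra+ cells of Aromhum mice held 536 CPM of Ctsh against 84.3 CPM in their venular and 39.8 CPM in their capillary cells on the scale of plain CPM. It did not pass without cells with more than 1 fibroblast UMI (0.82, edgeR adjusted p = 0.384) or without doublets (1.17, edgeR adjusted p = 0.194).

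Plvap, the diaphragm protein of fenestrated and venular endothelium, was 73.5, 30.5 and 49.4 CPM in WT and 438, 260 and 87.4 CPM in Aromhum mice. Its genotypes did not overlap, but the spread among the Aromhum mice was wide and it did not pass (2.37 ± 0.54 SE, edgeR adjusted p = 0.0887). It passed without Aromhum 3 (2.79), with DESeq2 (2.37), under the study's limits on cells (1.95), after thinning (2.31) and without cells with more than 1 fibroblast UMI (2.28). Vcam1, an adhesion molecule for leukocytes, was 23.4, 14.3 and 19.8 CPM in WT and 43.4, 41.9 and 32.4 CPM in Aromhum mice (1.04 ± 0.19 SE, edgeR adjusted p = 0.0546), and the cytokine receptor subunit Csf2rb had means of 50.6 ± 21.2 and 107.5 ± 20.5 CPM (SD, n = 3 mice each; edgeR adjusted p = 0.114). Vwf overlapped.

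Levels of these genes were also read without the cells that held a venular gene of the rule. A UMI of 1 venular gene of the rule was held by 5.18% to 9.95% of WT and 7.87% to 13.4% of Aromhum capillary cells. Without every cell that held an arterial or venular gene of the rule, the log2 differences were 2.44 for Lrg1, 2.65 for Plvap and 1.52 for Ctsh, close to those in all capillary cells, and none of the 3 passed (edgeR adjusted p = 0.0656, 0.0701 and 0.0605), in a fit that made 6 calls in all. Across the bands of Gpihbp1 after thinning, Lrg1 lay at 21.5 to 59.2 CPM in WT and 110 to 380 CPM in Aromhum mice with 0 to 4 UMIs, and at 6.83 to 21.9 and 50.1 to 122 CPM with 5 to 9 UMIs, and the genotypes did not overlap in either band. With 10 or more UMIs, where Aromhum mice had 18 to 119 cells, Lrg1 was 3.66 to 7.33 CPM in WT and 0 to 75.8 CPM in Aromhum mice, which overlapped. After thinning, 2.94% to 5.69% of WT and 9.64% to 27.6% of Aromhum capillary cells held an Lrg1 UMI, against at most 0.287% and 3.05% of Pdgfra+ cells (exact permutation p = 0.1 for the capillary shares, n = 3 mice each). Without thinning the capillary shares were 4.79% to 5.70% and 13.05% to 23.9%.

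The largest group of genes that rose belonged to the interstitial matrix. Of 29 genes on that list, 7 rose and none fell by edgeR, against 0.608% and 0.233% of all genes tested, with 26 above 0 and a median log2 difference of 1.04, between 0.89 and 1.25 under all alternatives. The counts in brackets are genes that rose among all tested in the same fit. The number on the list that rose was 16 with DESeq2 (254 of 13881) and 1 at the 5% mitochondrial limit (16 of 11417). It was 0 without cells with an arterial or venular gene (4 of 11086), without WT 2 (0 of 11953) or without WT 3 (3 of 12008). The 7 were the fibrillar collagen genes Col1a1, Col1a2, Col3a1 and Col5a1, the microfibrillar collagen genes Col6a1 and Col6a2, and the matricellular gene Postn. Col3a1 was 163, 152 and 106 CPM in WT 1, 2 and 3 and 608, 1019 and 374 CPM in Aromhum 1, 2 and 3 (2.26 ± 0.34 SE, edgeR adjusted p = 0.0367, 1 of 6 fits). Col1a1 was 87.1, 88.8 and 106 CPM in WT and 322, 493 and 245 CPM in Aromhum mice (1.92 ± 0.23 SE, edgeR adjusted p = 0.0252, 3 of 6 fits). Aromhum 2 was highest in both collagens. The proteoglycan gene Bgn was 65.1, 61.9 and 58.7 CPM in WT and 154, 160 and 169 CPM in Aromhum mice (1.39 ± 0.09 SE, edgeR adjusted p = 0.00281, 5 of 6 fits), with very little spread within a genotype, and Bgn had the lowest adjusted p of all genes, yet it passed in only 9 of the 14 alternatives that kept the 6 mice. Other genes with large differences in the same direction were the cell surface glycoprotein gene Emb (2.60), the secreted matrix genes Spon2 (2.33), Cilp (2.30) and Vcan (2.19), Moxd1 (2.22) and the procollagen peptidase Adamts2 (1.94).

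Most of these genes are expressed far more strongly by the fibroblast-like cells around the vessels, and the values that bear on this were measured. Of the 73 genes that rose, 39 (53.4%) were over 5 times higher in Pdgfra+ than in capillary cells of the Aromhum mice. Among all genes tested the share was 4.39%. Of the 28 that fell, 8 were listed without a UMI in the Aromhum libraries and could not be compared. None of the other 20 was over 5 times higher in Pdgfra+ cells. Col3a1 in capillary cells stood at 4.04%, 2.37% and 1.63% of its Pdgfra+ level in WT 1, 2 and 3 and at 5.06%, 10.9% and 3.97% in Aromhum 1, 2 and 3. Dcn, a proteoglycan that defines fibroblasts, stood at 3.81%, 2.54% and 1.94% in WT and at 5.67%, 10.2% and 6.30% in Aromhum mice. Both percentages were highest in Aromhum 2, as were those of Col1a1, Col1a2 and Gsn. Mfap4 was highest in Aromhum 3 (6.75%, against 4.73% in Aromhum 2). Postn and Lum overlapped between genotypes, at 9.59% and 3.73% in WT 1 and 6.86% and 3.21% in Aromhum 1. Col3a1 overlapped as well, at 4.04% in WT 1 and 3.97% in Aromhum 3.

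Over the whole list of 15 tested fibroblast markers, 5 rose, against 0.608% of all genes tested, and 14 lay above 0. The summed level was 1268 to 2986 CPM in WT and 3255 to 5472 CPM in Aromhum capillary cells, with Pdgfra at 0 by the rule. More than 1 UMI of Dcn, Col1a1, Col1a2 and Col3a1 was held by 23.6%, 21.0% and 25.8% of the WT capillary cells and by 49.6%, 44.6% and 54.3% of the Aromhum ones. Without those cells 55 genes passed, 34 of them among the 101, and Emb (1.22), Spon2 (1.72) and Vcan (1.55) did not pass, while Lrg1 (2.38), Cilp (2.37) and Col5a1 (2.07) did. Of the matrix genes 9 of 28 then rose, with a median of 0.98, and of the fibroblast markers 8 of 14, with a median of 1.52. Of all genes tested in that fit, 46 of 10312 rose. Both lists hold Col1a1, Col1a2 and Col3a1, whose UMIs chose these cells, so these counts are a description only. The part of fibroblast RNA, free or from attached cells, in the matrix genes was not tested beyond these values.

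**Figure D3:**
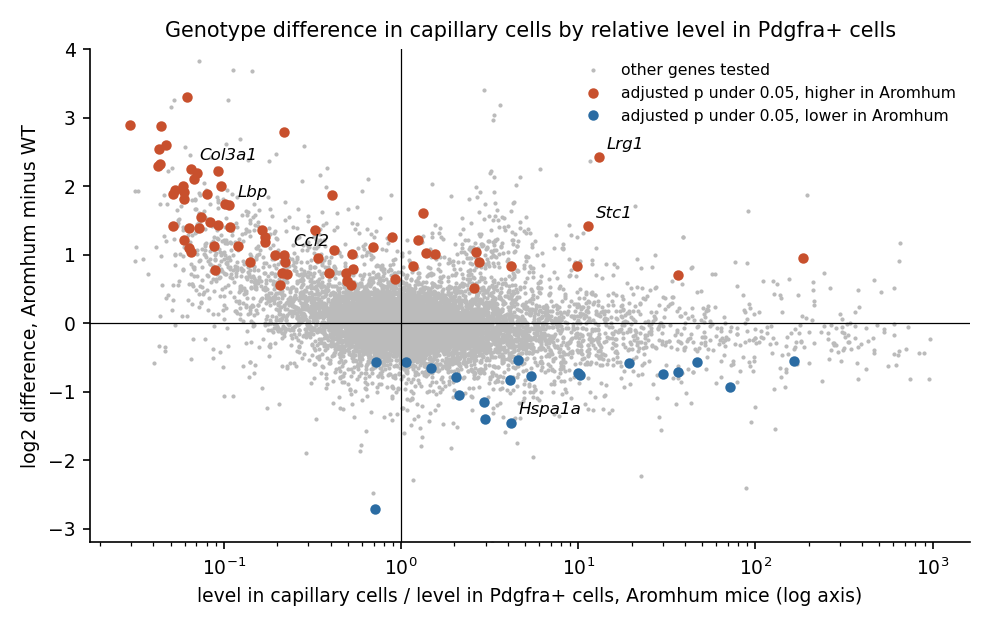
Log2 difference between Aromhum and WT capillary cells (y axis) against the ratio of a gene's level in capillary cells to its level in Pdgfra+ cells of the Aromhum mice (x axis, log scale), with 1 point per gene. Of the 73 genes called higher, 14 (19.2%) lie to the right of 1, against 57.4% of all genes tested. Of the 28 called lower, 18 do, and 8 have no ratio and are not drawn, since they were listed at 0 in Aromhum libraries. CYP19A1 (7.19) and Fam110c (4.53) lie outside the axes.

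Of the 73 genes that rose, 15 were neither over 5 times higher in Pdgfra+ cells nor over 2 times higher in the venular cells of WT mice, as were 10904 of all 12008 genes tested. Over 2 times higher in those venular cells were 26 of the 73 (35.6%), against 5.35% of all genes tested. The 15 were CYP19A1, Itgav, Cited1, Ptgfrn, Nfkb1, Slc39a8, Nbl1, Creb3l2, Col18a1, Sema3f, Tgfbr2, Ccl2, Syk, Lamb1 and Ndrg1, of which Ccl2, Cited1, Ptgfrn, Tgfbr2 and Nbl1 lay close to the limit, at 20.7% to 22.7% of the Pdgfra+ level, and Ndrg1 lay at the venular limit, with 349 plain CPM in venular and 175 in capillary cells of WT mice. The integrin subunit gene Itgav had means of 21.8 ± 3.76 CPM in WT and 45.9 ± 7.87 CPM in Aromhum mice (SD, n = 3 mice each; 1.07, edgeR adjusted p = 0.0395, 1 of 6 fits). Nfkb1, which codes for a subunit of the inflammatory transcription factor NF-kappaB, was 165, 176 and 167 CPM in WT and 251, 252 and 239 CPM in Aromhum mice (0.56 ± 0.09 SE, edgeR adjusted p = 0.0395, 0 of 6 fits). Its genotypes were tight and apart, although the difference was small.

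Of 23 tested genes of leukocyte adhesion and chemokines outside the rule, 3 rose by edgeR, against 0.608% of all genes tested, none fell and 18 lay above 0, with a median of 0.41. The 3 were the monocyte chemokine Ccl2, the cytokine Il6 and the lipopolysaccharide-binding protein Lbp. Lbp rose by 1.72 on the log2 scale (edgeR adjusted p = 0.0443, 1 of 6 fits). In Aromhum mice it was 121 plain CPM in capillary and 1127 in Pdgfra+ cells. It passed in 9 of the 14 alternatives that kept the 6 mice, and not without cells with more than 1 fibroblast UMI or after thinning. Ccl2 was 470, 547 and 643 CPM in WT 1, 2 and 3 and 1178, 1007 and 1110 CPM in Aromhum 1, 2 and 3, with clear separation (1.00 ± 0.13 SE, edgeR adjusted p = 0.0303, 1 of 6 fits). Without cells that held more than 1 fibroblast UMI the Ccl2 difference was 1.26 (edgeR adjusted p = 0.0109), although Pdgfra+ cells held 5108 CPM of Ccl2. Without cells marked as doublets it was 0.97 and did not pass (edgeR adjusted p = 0.121). Il6 was 78.5, 57.3 and 75.6 CPM in WT and 223, 156 and 123 CPM in Aromhum mice (1.26 ± 0.21 SE, edgeR adjusted p = 0.045, 1 of 6 fits), with Aromhum 1 highest. In WT mice it was 68.9 plain CPM in capillary and 657 in venular cells. The intercellular adhesion gene Icam1 had means of 897 ± 133 and 1183 ± 128 CPM (SD, n = 3 mice each) and did not pass (edgeR adjusted p = 0.181). Of 38 genes of antigen presentation and the interferon response, none passed by edgeR, with 7 at an unadjusted p under 0.05, DESeq2 called 2 lower and the median was -0.07.

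Among the called genes with a mean of at least 10 CPM, the largest decreases were in the inducible heat shock genes Hspa1a and Hspa1b. Hspa1a (chr17:34969190-34972156, minus strand, GRCm38) and Hspa1b (chr17:34956436-34959238, minus strand) code for nearly identical HSP70 chaperones induced by heat and other stress, so the split of reads between them is uncertain. Hspa1a was 1257, 1380 and 1507 CPM in WT 1, 2 and 3 and 505, 433 and 563 CPM in Aromhum 1, 2 and 3 (-1.45 ± 0.12 SE, edgeR adjusted p = 0.00899). Hspa1b was 388, 409 and 432 CPM in WT and 125, 156 and 178 CPM in Aromhum mice (-1.40 ± 0.13 SE, edgeR adjusted p = 0.00899). Both passed in all 14 alternatives that kept the 6 mice, and in 5 and 4 of the 6 fits with a mouse left out, Hspa1a being lost only without WT 2 (edgeR adjusted p = 0.102). They were the 2 genes that fell among 30 immediate early and heat shock genes, against 0.233% of all genes tested. Of the 30, 23 lay below 0, with a median of -0.22. Hspa1a lay lower in arterial cells as well (-1.02) and in venular cells (-0.91), where it did not pass (edgeR adjusted p = 0.0591 and 0.161).

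Of the other genes that fell, Cdkn1c, which codes for the cell cycle inhibitor p57, was 429, 424 and 453 CPM in WT 1, 2 and 3 and 220, 219 and 290 CPM in Aromhum 1, 2 and 3 (-0.83 ± 0.13 SE, edgeR adjusted p = 0.0367, 1 of 6 fits). It was the 1 gene that passed among 20 cell cycle genes, against 0.841% of all genes tested, and 15 of the 20 lay above 0. The proliferation marker Mki67 was at 5.45 ± 3.77 CPM in WT and 12.9 ± 3.40 CPM in Aromhum mice (SD, n = 3 mice each; edgeR adjusted p = 0.228). The Notch target Nrarp was 142, 126 and 136 CPM in WT and 91.7, 93.3 and 89.1 CPM in Aromhum mice (-0.55 ± 0.09 SE, edgeR adjusted p = 0.0419, 0 of 6 fits). It was the 1 of 16 Notch genes that passed, against 0.841% of all genes tested. Nrarp passed in 7 of the 14 alternatives that kept the 6 mice, while Dll4 had means of 142 ± 18.5 and 105 ± 8.73 CPM (edgeR adjusted p = 0.15). The vasodilator peptide adrenomedullin (Adm) was 150, 175 and 200 CPM in WT and 106, 113 and 110 CPM in Aromhum mice (-0.66 ± 0.12 SE, edgeR adjusted p = 0.0468, 0 of 6 fits), and it no longer passed with size factors of another method (RLE).

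Neurotrophin 3 (Ntf3) was 22.6, 23.6 and 20.6 CPM in WT and 13.9, 13.1 and 12.2 CPM in Aromhum mice (-0.77 ± 0.13 SE, edgeR adjusted p = 0.0419, 0 of 6 fits), and it passed in 7 of the 14 alternatives that kept the 6 mice, with a difference of -0.28 at its smallest. The neighbouring genes Spaar and Hrct1, which lie on the same strand at chr4:43730034-43759462 and chr4:43727188-43728639 (GRCm38), both fell, Spaar by 0.94 and Hrct1 by 0.74 on the log2 scale (0 of 6 fits for each). The immediate early gene Arc was 81.9, 66.6 and 68.7 CPM in WT and 42.5, 37.7 and 47.1 CPM in Aromhum mice (-0.75, edgeR adjusted p = 0.0419, 1 of 6 fits). A further 3 transcripts without a protein product also fell. AC160336.1 (chr14:44544055-44637201, minus strand), a long noncoding RNA in a cluster of predicted genes, was 444, 457 and 481 CPM in WT and 153, 250 and 215 CPM in Aromhum mice (-1.15 ± 0.17 SE, edgeR adjusted p = 0.0339, 3 of 6 fits). Gm26669 (-0.78) and B930036N10Rik (-1.05), each still called in 1 of 6 fits, overlap Zfp36l1 and Alyref2 on the opposite strand.

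**Figure D4:**
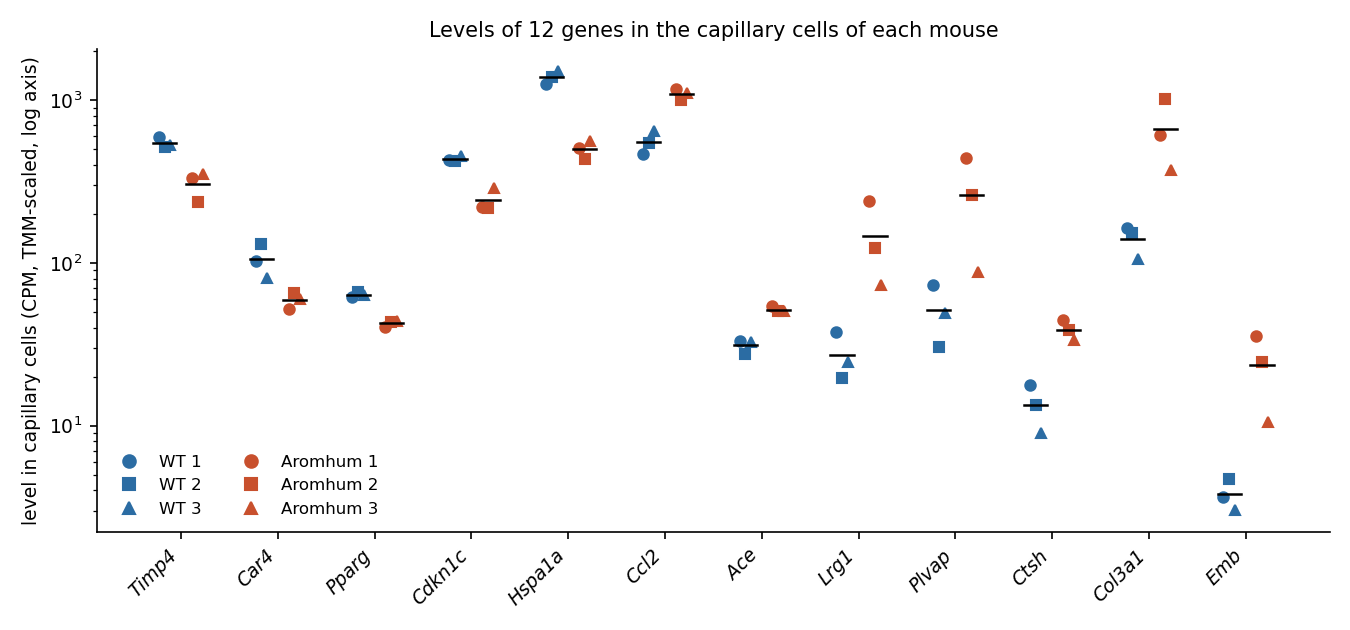
Levels of 12 genes in the capillary cells of each mouse (y axis, CPM scaled by the TMM factors, log scale), with 1 point per mouse and a bar at the mean of each genotype. The 12 genes were chosen after their values were seen and none overlaps between genotypes, as is so for 22.7% of all genes tested. Timp4, Car4 and Plvap did not pass the test (edgeR adjusted p = 0.0546, 0.088 and 0.0887).

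Of 25 genes of flow response and vasoactive signalling, 2 rose by edgeR, Ptgis and Ace, and 1 fell, Adm, against 0.608% and 0.233% of all genes tested. DESeq2 called 6 higher and 1 lower, against 254 and 106 of 13881 genes, and with RLE size factors 2 rose and 0 fell. Ace, the gene of the angiotensin-converting enzyme, was 33.2, 27.7 and 32.6 CPM in WT 1, 2 and 3 and 54.1, 50.5 and 50.3 CPM in Aromhum 1, 2 and 3 (0.74 ± 0.11 SE, edgeR adjusted p = 0.0339, 0 of 6 fits). Other cells held more of it. In WT mice Ace was 30.5 plain CPM in capillary, 75.4 in venular, 123 in arterial and 185 in Pdgfra+ cells. In Aromhum mice it was 52.8 in capillary, 122 in venular and 135 in Pdgfra+ cells. Prostacyclin synthase (Ptgis) was 11.5, 10.6 and 9.13 CPM in WT and 21.98, 34.2 and 30.0 CPM in Aromhum mice (1.48 ± 0.18 SE, edgeR adjusted p = 0.0252, 3 of 6 fits), and its level in Pdgfra+ cells of Aromhum mice was 352 CPM. Ptgis did not pass without cells with more than 1 fibroblast UMI (0.71, edgeR adjusted p = 0.644), without doublets (0.96, edgeR adjusted p = 0.211) or after thinning (1.37, edgeR adjusted p = 0.124). Endothelin 1 (Edn1) had means of 43.97 ± 8.03 and 82.5 ± 25.5 CPM (SD, n = 3 mice each; edgeR adjusted p = 0.0935). Endothelial nitric oxide synthase (Nos3) overlapped.

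Of 21 basement membrane genes, 2 rose by edgeR, against 0.608% of all genes tested, and none fell. Neither passed at the 5% mitochondrial limit or without cells with an arterial or venular gene, fits in which 16 of 11417 and 4 of 11086 genes rose. The laminin chain gene Lamb1 was 77.0, 79.6 and 91.2 CPM in WT and 134, 124 and 126 CPM in Aromhum mice (0.64 ± 0.10 SE, edgeR adjusted p = 0.0367, 0 of 6 fits). The collagen gene Col18a1, whose product yields endostatin, was 27.8, 40.5 and 26.1 CPM in WT and 81.3, 53.2 and 83.1 CPM in Aromhum mice (1.22 ± 0.22 SE, edgeR adjusted p = 0.048, 0 of 6 fits), and it passed in 8 of the 14 alternatives that kept the 6 mice. Neither was much higher in Pdgfra+ than in capillary cells of the Aromhum mice, where Lamb1 stood at 91.9% and Col18a1 at 124% of the Pdgfra+ level. Both were also higher in venular cells of Aromhum mice. There the WT and Aromhum means were 36.4 and 93.9 plain CPM for Lamb1 and 40.3 and 140 for Col18a1. In capillary cells they were 80.7 and 131 and 30.8 and 74.1 plain CPM. Of 25 genes of BMP and TGF-beta signalling, 1 rose by edgeR, the receptor gene Tgfbr2, against 0.608% of all genes tested. DESeq2 called 3 higher, against 254 of 13881 genes, and 0 rose at the 5% mitochondrial limit, where 16 of 11417 genes did. Tgfbr2 was at 56.8, 58.6 and 50.6 CPM in WT and 88.5, 104 and 80.8 CPM in Aromhum mice (0.73 ± 0.12 SE, edgeR adjusted p = 0.0419, 1 of 6 fits). Of 22 genes of glycolysis and hypoxia, 1 rose, Ndrg1 (0.62 ± 0.09 SE, edgeR adjusted p = 0.0339, 1 of 6 fits), and 1 fell, Adm, against 0.608% and 0.233% of all genes tested.

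None of 23 genes of VEGF, angiopoietin and apelin signalling passed by edgeR in the main fit, nor of 18 genes of solute, glucose and oxygen handling, 16 junction genes or 13 arterial genes outside the rule. None of 19 steroid receptor and hormone response genes passed in it either. In other edgeR settings, 1 gene of the VEGF list rose after thinning, and 1 arterial gene rose after thinning and with at least 2 Gpihbp1 UMIs. DESeq2 called 2 of the steroid receptor and hormone response genes higher, 2 arterial genes higher, 1 junction gene higher and 4 lower, 1 gene of solute handling higher and 1 lower, and none of the VEGF list. The estrogen receptor gene Esr1 was sparse in capillary cells, with means of 2.66 ± 0.764 CPM in WT and 5.01 ± 3.01 CPM in Aromhum mice that overlapped (SD, n = 3 mice each; edgeR adjusted p = 0.288), and the estrogen target Greb1 had 1.16 ± 0.101 and 6.54 ± 5.92 CPM without overlap (edgeR adjusted p = 0.103). The study reports both genes as high in a fibroblast cluster, and the part of fibroblast RNA in these values was not tested. The counts at an unadjusted p under 0.05 in these 5 lists were 8, 6, 6, 6 and 7.

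Of the 28 lower genes, 8 were listed at 0 in every barcode of the 3 Aromhum libraries, namely Gm30918, Gm3453, Klra10, Gm3558, Fabp9, Sez6, Gm3411 and D830026I12Rik. The deposited table left each library with a floor, since nearly every gene in it was either absent from a library or present in at least 20 of its barcodes, so these genes are given as listed at 0 and without a fold. Dqx1, also called lower (edgeR adjusted p = 0.0414), held 24, 35 and 28 UMIs in the capillary cells of WT 1, 2 and 3 and 1, 2 and 2 UMIs in those of Aromhum 1, 2 and 3. Fabp9, a fatty acid binding protein, held 31, 174 and 304 UMIs over all barcodes of WT 1, 2 and 3. With the test restricted to the 11946 genes above 0 in every library, 83 passed, 65 higher and 18 lower, and all 83 were among the 101.

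Markers of cells other than fibroblasts gave these values in the capillary sums. Immune genes summed to 256 to 587 CPM in WT and 229 to 1281 CPM in Aromhum mice, and the complement gene C1qa reached 166 CPM in Aromhum 1 against 3.59 to 19.3 CPM in the other 5 mice. Muscle fibre genes summed to 430 to 1152 CPM in WT and 385 to 608 CPM in Aromhum mice, with 12 of 13 below 0. Pericyte and smooth muscle genes summed to 1097 to 1354 and 1094 to 2095 CPM with Myh11 at 0 by the rule, glial genes to 208 to 283 and 155 to 238 CPM, mesothelial genes to 19.1 to 118 and 130 to 166 CPM, muscle stem cell genes to 110 to 177 and 92.5 to 139 CPM, erythroid genes to 127 to 1573 and 37.8 to 843 CPM, and lymphatic genes to 1271 to 2258 and 1559 to 3942 CPM. No gene of these 8 lists passed by edgeR in either direction, with 0 to 6 in a list at an unadjusted p under 0.05. DESeq2 called 2 muscle fibre genes and 1 glial gene lower, 1 muscle stem cell gene higher and 2 lower, and 1 pericyte and 1 lymphatic gene higher. Other edgeR settings called at most 3 genes of a list, 3 muscle fibre genes lower without doublets and 2 lymphatic genes higher after thinning among them. Beside Pdgfra and Myh11 no defining marker was at 0, and the part of these cells in the capillary results was not tested. Without the cells with 2 lymphatic genes 79 genes passed, 71 of them among the 101, and Lrg1 (2.97, edgeR adjusted p = 0.0903) did not.

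To ask whether the genotype difference was particular to capillary cells, the same contrast was made in arterial and venular cells of the same mice, and the difference between effects was tested with a term for each mouse. Of 9467 genes in arterial cells, 3 passed (0.0317%, with 1156 at an unadjusted p under 0.05), and of 10092 genes in venular cells, 2 passed (0.0198%, with 1677). None of 10944 genes (0%) differed in its effect between capillary and arterial cells by edgeR's quasi-likelihood test, with 614 at an unadjusted p under 0.05. In simulated counts this test found 33% of the genes given a 2-fold difference in effect, and 24% for venular cells. The genotype test in capillary cells found 63% of 2-fold changes, so few calls here do not show equal effects. Lrg1 had effects of 2.43 in capillary and 2.95 in arterial cells, Timp4 of -0.82 and -1.30, Hspa1a of -1.45 and -1.02, and Cdkn1c of -0.83 and -1.05.

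Of 11738 genes, 13 (0.111%) differed in their effect between capillary and venular cells. For 10 of them the effect was higher in capillary cells. The largest was Akap12, a scaffold of kinase signalling, with log2 effects of 0.43 in capillary and -1.29 in venular cells and a difference of 1.77 ± 0.21 SE (edgeR adjusted p = 0.0215). On the scale of plain CPM it was 407, 416 and 586 CPM in the capillary cells of WT 1, 2 and 3 and 541, 712 and 708 CPM in those of Aromhum 1, 2 and 3, whereas in venular cells it was 702, 1019 and 1050 CPM in WT and 258, 416 and 555 CPM in Aromhum mice. The genotypes were thus apart in venular cells, where WT was higher, and overlapped in capillary cells. The transcription factor Myc had effects of 0.27 and -1.11, and its genotypes did not overlap in either cell type, with the Aromhum mice higher in capillary cells and lower in venular cells.

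The transcription factor Sox4, the apelin receptor gene Aplnr and Ankrd37 had a higher effect in venular than in capillary cells. Sox4 in venular cells was 77.2, 115 and 99.3 plain CPM in WT and 517, 477 and 203 plain CPM in Aromhum mice, while in capillary cells it was 87.7, 109 and 97.9 plain CPM in WT and 147, 128 and 96.7 plain CPM in Aromhum mice (difference -1.56 ± 0.19 SE, edgeR adjusted p = 0.0215). Lrg1 (1.75 ± 0.34 SE, edgeR adjusted p = 0.0744), Plvap (2.05 ± 0.53 SE, edgeR adjusted p = 0.131), Ccl2 (1.75 ± 0.38 SE, edgeR adjusted p = 0.0977) and Il6 (1.89 ± 0.34 SE, edgeR adjusted p = 0.0604) had higher effects in capillary than in venular cells that did not pass. In WT venular cells Lrg1 already stood at 1053 CPM and reached 1682 CPM in Aromhum mice, against 26.7 and 149 CPM in capillary cells on the same scale of plain CPM.

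**Figure D5:**
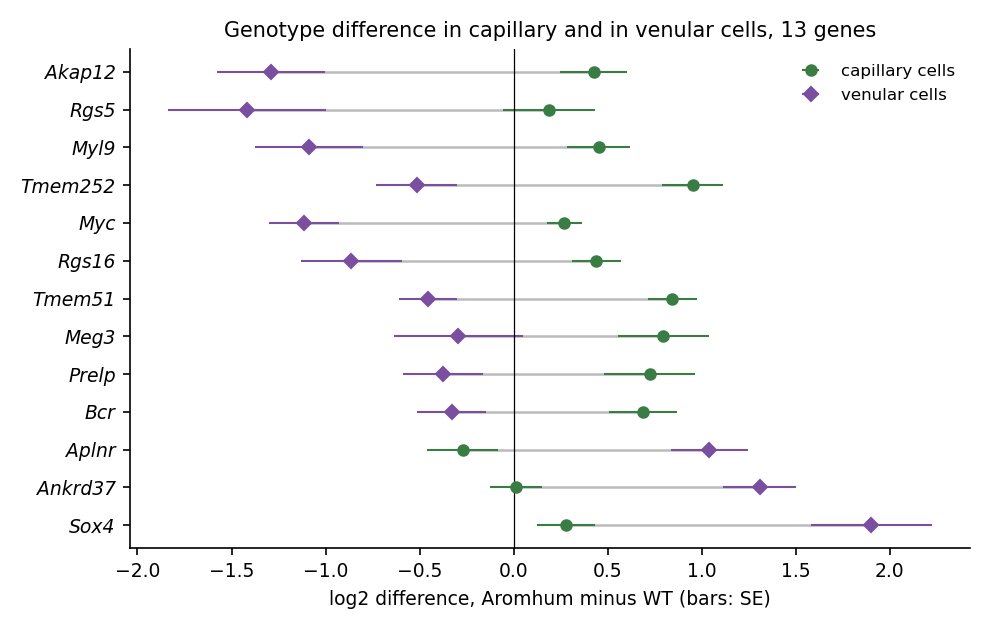
Log2 difference between Aromhum and WT mice (x axis, bars are SE) in capillary and in venular cells for the 13 genes whose effects differed between them. The effects range from -1.42 (Rgs5) to 1.90 (Sox4) in venular cells and from -0.27 (Aplnr) to 0.95 (Tmem252) in capillary cells.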

How the data were processed

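The deposited table holds raw UMI counts per gene and barcode of 6 libraries, 1 for each mouse, which the authors made with Cell Ranger 3.0.2 against mm10 with human CYP19A1 added. It lists 16494 genes and 63647 barcodes, and no value was normalized. The table bears a floor in each library: 1071 to 1709 genes were at 0 in a library, 1 to 147 lay in 1 to 19 of its barcodes, and 848 to 1290 lay in 20 to 39.

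The capillary cells, the arterial, venular and lymphatic cells and all gene lists were chosen with earlier results of these data known. For each mouse, the UMIs of a cell type were added up, filtered with filterByExpr, scaled by TMM and tested with edgeR 4.0.16 (glmQLFit, glmQLFTest) in R 4.3.3, with Benjamini-Hochberg adjustment over all genes and a threshold of 0.05. Fits over 2 cell types had a term for each mouse. Levels of called genes are CPM scaled by TMM, and levels compared across cell types are plain CPM. Shares were compared with exact 2-sided permutation tests over mice in scipy 1.17.1, and the intervals of shares are 95% Wilson intervals of counting error only. The capillary sums held 3297938 to 13438179 UMIs per mouse, and the sparser Aromhum sums are the less precise. Mice are the replicates.

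Doublets were scored in scanpy 1.11.5 with Scrublet. Its automatic threshold marked 0 barcodes in 2 libraries, so the highest 8% of each library were marked and left out only in an alternative. The tests were checked on simulated counts. Other alternatives were DESeq2 1.42.0, RLE size factors, no filter on low counts, a mouse left out, a replicate block, other limits on cells and thinning to 3000 UMIs. The restriction to genes above 0 in every library, the share of 8% for doublets and the alternatives that left out cells with lymphatic, arterial or venular, or fibroblast UMIs were chosen after seeing the data.

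Genes were named by rule: the 5 capillary markers, up to 10 genes with the largest change in each direction among calls without overlap and with a mean of at least 10 CPM, up to 4 called members of each list by lowest p, and up to 3 members of each list with the highest level. Other genes named in the text were chosen after their values were seen. Gene positions come from GENCODE vM21 (GRCm38). The counting was not stated to use strand, so overlapping genes cannot be told apart.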

Additional observations from a re-analysis of the deposited data

Results flagged for a closer look

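For 13 genes the genotype effect differed between capillary and venular cells of the same mice by the edgeR test of the difference itself. The difference of the log2 effects, capillary minus venular, was 1.00 (SE 0.11) for Bcr, 1.54 (SE 0.18) for Myl9, 1.63 (SE 0.19) for Rgs5, 1.39 (SE 0.17) for Myc, 1.77 (SE 0.21) for Akap12, 1.29 (SE 0.16) for Tmem51, -1.30 (SE 0.16) for Ankrd37 and -1.56 (SE 0.19) for Sox4, each with an edgeR adjusted p = 0.0215. It was -1.26 (SE 0.16) for Aplnr and 1.13 (SE 0.15) for Meg3 (edgeR adjusted p = 0.0251), 1.35 (SE 0.19) for Rgs16 and 1.12 (SE 0.16) for Prelp (edgeR adjusted p = 0.0371), and 1.503 (SE 0.22) for Tmem252 (edgeR adjusted p = 0.0486).

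Of these genes, Tmem51 (0.84, edgeR adjusted p = 0.0373) and Tmem252 (0.95, edgeR adjusted p = 0.0445) also passed the test of genotype within capillary cells, and none of the 13 passed it within venular cells. Tmem51 was 19.1, 16.8 and 21.0 plain CPM in the capillary cells of WT 1, 2 and 3 and 39.4, 33.1 and 33.4 in those of Aromhum 1, 2 and 3. In venular cells Tmem51 was 160.0, 142 and 164 plain CPM in WT and 128, 102 and 138 in Aromhum mice. In both cell types the genotypes did not overlap, and the Aromhum mice were the higher in capillary cells and the lower in venular cells.

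Rgs5, known as a marker of pericytes, was 701, 975 and 896 plain CPM in WT and 939, 1414 and 684 in Aromhum capillary cells, which overlapped. In venular cells it was 256, 542 and 428 plain CPM in WT and 153, 277 and 79.8 in Aromhum mice, which also overlapped. The part of pericyte RNA in these values was not tested. The test of the difference called 0 genes without Aromhum 1, Aromhum 2, WT 1 or WT 3, 1 gene without WT 2 and 458 genes without Aromhum 3. Single far samples were not looked for, since each genotype holds 3 mice.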

How the results depend on the processing

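The capillary share was lower in Aromhum mice in every setting tried, by -11.9 percentage points without cells with an arterial or venular gene to -21.6 points as a share of endothelial cells, with an exact permutation p = 0.1 at 3 mice each and exact p = 0.2 with a mouse left out (-14.4 to -18.2 points), the smallest these designs allow, as is the exact sign-flip permutation p = 0.25 of the differences within replicate numbers. The 101 edgeR calls between genotypes became 360 with DESeq2, 187 with at least 2 Gpihbp1 UMIs, 21 at the 5% mitochondrial limit, 55 without cells with over 1 fibroblast UMI, 6 without cells with an arterial or venular gene, and 0 to 110 with a mouse left out (25 without Aromhum 1, 16 without Aromhum 2, 110 without Aromhum 3, 24 without WT 1, 0 without WT 2 and 4 without WT 3). Higher in Aromhum mice were 73 of the 101 calls, against 63 of 70 after thinning, 71 of 85 under the study's limits on cells and 46 of 55 without cells with over 1 fibroblast UMI. With no filter on low counts, 126 genes passed in arterial cells, 24 in venular cells, 1 for the difference of effects from arterial cells and 135 for that from venular cells. With a mouse left out these counts ran from 0 to 33, 0 to 559, 0 to 4 and 0 to 458 in the same order. The cause of these changes was not tested. All 101 called genes kept their sign in every setting in which they could be tested.

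The replicate numbers of the labels were checked for pairing. Deviations from the group mean correlated at 0.153, -0.0182 and 0.177 for mice with the same number and at -0.227 to 0.0655 for the others, so not every pair with the same number passed 0.1 and the numbers were not used as pairs. Whether mice with the same number share a date is not stated. A fit with the replicate block called 242 genes, 94 of them among the 101, and the difference in share was -16.1 points under the block. With the block Timp4 (edgeR adjusted p = 0.0274), Car4 (edgeR adjusted p = 0.043) and 3 of the 16 other capillary genes were called lower, and Col18a1 was not called. Higher under the block were 2 genes of caveolae and transcytosis, 1 of the VEGF list, 1 junction gene and 1 arterial gene. The capillary sums held 3297938 to 6463188 UMIs in Aromhum and 8606454 to 13438179 UMIs in WT mice.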
